A study of Solanum lycopersicum x Solanum pennellii and Solanum lycopersicum and Solanum pennellii with 31 samples.

Results

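The sequences described here are the shortest small RNAs (sRNAs) found at H06, a locus on chromosome 8 of tomato that the study followed for the transfer of DNA methylation between alleles. They were chosen by length alone. Of the 115 distinct sequences listed for H06 in leaves, flowers and pollen, 34 are 15–22 nt long and 81 are 23–24 nt long. In the libraries used, 33 of the 34 had reads, 40 in all, against 118 reads of 23–24 nt over 78 sequences. The remaining short sequence, of 17 nt, is listed with no read in these libraries and is kept in the counts of sequences.

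The plants were the F1 of M82 and S. pennellii LA0716, S. pennellii itself, a wild relative of tomato, and the tomato cultivar M82. Leaves came from seedlings of 2 weeks, and mature flowers and pollen from plants of 2 months. The F1 had 4 libraries of each tissue, which gave 12 libraries. S. pennellii had 2 of pollen, 2 of leaf and 1 of flower, and M82 had 2 of each tissue, so that 23 libraries were used. The labels list a second S. pennellii flower sample. One flower column of the S. pennellii table, whose name gives no S. pennellii sample, may be that sample and was not used, which bears on every S. pennellii flower value and on the sequence with no read. None of these plants carries a transgene or an induced mutation that the labels name, and the tables hold H06 reads only, so that tissue markers could not be checked. The values are raw counts of reads that matched an H06 sequence without mismatch. The tables give no library depth, so that no count could be scaled, and differences in depth between libraries enter the values in full. Per library, H06 had between 0 and 26 reads of all sizes, and no more than 3 reads of any short sequence. Intervals given are 95% exact (Clopper-Pearson) and hold for counting error alone, because PCR copies of 1 molecule are counted as separate reads.

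Plants make sRNAs by cutting double-stranded RNA with Dicer-like enzymes, and each enzyme makes products of a characteristic length. In Arabidopsis, DCL3 makes the 24-nt sRNAs that guide DNA methylation in the RNA-directed pathway, DCL4 and DCL1 make products that are mostly 21 nt long, and DCL2 makes products of 22 nt. A Dicer-like enzyme leaves paired strands with 2-nt overhangs at the 3′ ends. In the same species, AGO4, the Argonaute of the methylation pathway, mostly holds 24-nt sRNAs that start with A, and AGO1 mostly holds 21-nt sRNAs that start with U. Shorter RNAs are known as products of trimming or decay as well as of cutting.

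Of the short sequences, 5 had 2 reads or more. They are shown because every other one rests on 1 read or less, and T stands for U as in the tables. Where a short sequence lies inside a sRNA of 23–24 nt, the longer one follows with the short one in capitals. A name gives the length, the H06 sequence matched, the strand (plus or minus) and the positions.
16 nt, S. pennellii minus 420–435: tacttgaactaaaaca
the same within the first of its longer sRNAs: acacccTACTTGAACTAAAACAtg
the same within the second: cTACTTGAACTAAAACAtggaaat
22 nt, S. pennellii plus 193–214: tttcacactcttcgaccaattc
20 nt, S. pennellii minus 112–131: actaatgacaagtgactata
20 nt, M82 minus 96–115: atatcatgcgtcttcagaca
20 nt, S. pennellii minus 17–36: ttatgttgctctgtttgccc
the same within its longer sRNA: ataTTATGTTGCTCTGTTTGCCCa

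The 16-nt sequence had 3 reads, 1 in each of F1 flower replicate 1, F1 pollen replicate 4 and S. pennellii flower replicate 1. It was the most widely spread of the 34, and only 1 other, the 20-nt sequence at 112–131, occurred in a second library, with 1 read each in F1 pollen replicate 4 and S. pennellii pollen replicate 1. The 22-nt sequence at 193–214 had all its 3 reads in F1 pollen replicate 1. The M82 sequence at 96–115 had both reads in F1 flower replicate 3, and the sequence at 17–36 had both in S. pennellii flower replicate 1. The other 28 short sequences with reads had 1 read each. Repeated sequences were also a minority at 23–24 nt, where 55 of the 78 sequences with reads had 1 read and 12 occurred in 2 libraries or more.

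Most short sequences, 22 of 34, were 20–22 nt long. The 12 sequences of 22 nt had 14 reads in 9 libraries, and the 7 of 20 nt had 10 reads in 5 libraries. The 3 sequences of 21 nt had 3 reads, all of them in the S. pennellii flower library. Below 20 nt there were 12 sequences and 13 reads, namely 5 sequences of 15 nt with 5 reads, 1 of 16 nt with 3 reads, 2 of 17 nt with 1 read, 2 of 18 nt with 2 reads and 2 of 19 nt with 2 reads. None of the short lengths came near the 24-nt class, with 96 reads of 63 sequences, and 23 nt had 22 reads of 18 sequences. The 22-nt reads numbered 8 in F1 pollen, where every library held at least 1, 2 in F1 flowers, 1 in the S. pennellii flower library and 3 in S. pennellii pollen. The 20-nt reads numbered 5 in F1 flowers, 4 of them in replicate 3, and 1 in F1 pollen, with 2 in the S. pennellii flower library and 2 in S. pennellii pollen. The libraries were size-selected on a gel and the lower limit on read length is not given in the sources used here, so that these counts do not give the makeup of the RNA before selection.

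The strands were unequal in the shortest sequences. All 12 sequences of 15–19 nt, with 13 reads over 8 libraries, were on the minus strand, against 11 of 22 on the minus strand at 20–22 nt (14 of 27 reads). The split at 20 nt was made after the values were seen, so that no test is given for it. Over the whole short class 23 of 34 sequences and 27 of 40 reads (67.5%, interval 50.9 to 81.4%) were on the minus strand. Among the 23–24-nt sRNAs the strands were near balance, with 41 of 81 sequences and 60 of 118 reads on the minus strand (50.8%, interval 41.5 to 60.2%). The 22-nt sequences, by contrast with the shortest, had 7 on the plus and 5 on the minus strand.

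C stood first more often in the short sequences than in the longer ones, with intervals that overlapped. Of the short sequences 12 started with A, 10 with C, 10 with T and 2 with G, and of the 23–24-nt sRNAs 38 started with A, 10 with C, 24 with T and 9 with G. C was the first base of 29.4% of the short sequences (interval 15.1 to 47.5%) and of 12.3% of the longer ones (interval 6.08 to 21.5%). By reads it was 22.5% (interval 10.8 to 38.5%) against 12.7% (interval 7.29 to 20.1%). The difference was not tested. Of the 12 sequences of 22 nt, 6 started with C, 4 of them on the plus strand. At 15–19 nt the commonest first base was A, in 7 of 12. Sequences that overlap share bases and are not independent draws.

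Along H06 the short sequences were most numerous in the same 100 bases as the longer sRNAs, but the classes differed in other windows. Those that start in the 100 bases from 101 on were 18 of 34, with 20 of 40 reads (50.0%), and the same window held 37 of 81 longer sRNAs, with 49 of 118 reads (41.5%). The 100 bases from 201 on held 2 of the 40 short reads, against 24 of the 118 longer ones. From 401 on the order was the other way, with 8 of 40 against 12 of 118. Each sequence was placed by its lower coordinate, in the numbering of a parent that it matched. The numberings of the parents are shifted against each other, so that the same place can fall in different windows by allele. For example, the nearest S. pennellii site to M82 plus 392–411 is at 401–420. The differences between windows were not tested. On the M82 sequence, 6 short sequences overlapped each other from 96 to 147, with 7 reads in 5 libraries. On the S. pennellii sequence 10 overlapped from 96 to 167, with 10 reads in 9 libraries, 8 of them on the minus strand. The stretch from 178 to 214 of the S. pennellii sequence held 4 sequences with 6 reads in 2 libraries, and that from 418 to 439 held 3 with 5 reads in 5 libraries. In all, the 12 sequences that match M82 covered 150 bases in 5 stretches and the 23 that match S. pennellii covered 237 bases in 8 stretches. The seedling table places the sRNA locus at H06 on chromosome 8 of build SL2.50 from 54487405 to 54487649, and it gives no read length. Positions within H06 count from 1 at the start of each parent's own H06 sequence. No annotation was used, so that genes or repeats at these positions are not given.

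In this crowded stretch some sequences paired with each other, and some matched nearly the same place on the other allele. They are shown because base pairing and allele can be read from their letters. Capitals mark the bases of the first pair that face each other on opposite strands.
M82 plus 126–147: CCTTATTGTCAGTGATCTTGtt
M82 minus 124–145: CAAGATCACTGACAATAAGGac
S. pennellii plus 125–146: cattagtgtcagtgattttgtt
M82 minus 96–115: atatcatgcgtcttcagaca
S. pennellii minus 96–115: tatattatgcgtcttcagac

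The first pair consists of 22-nt sequences with 20 paired bases and a 2-base overhang at both 3′ ends. It was the only pair of this form with a short member, and 2 other pairs of this form were both 23 or 24 nt long. Each strand had 1 read, the plus strand in F1 flower replicate 3 and the minus strand in F1 flower replicate 4, so that the pair does not come from 1 library. The S. pennellii sequence at 125–146, of the same length, had 1 read in F1 pollen replicate 3 and differs from the nearest M82 site at 3 bases. The sequences at 96–115 have equal numbers but their letters line up when shifted by 1 base. They had 2 reads in F1 flower replicate 3 for M82 and 1 read in F1 flower replicate 4 for S. pennellii.

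Of the 34 short sequences 16 lay inside a sRNA of 23–24 nt on the same strand. They held 18 of the 40 reads (45.0%, interval 29.3 to 61.5%). A further 6 were the antisense of a part of a longer sRNA only, and 12 were neither, such as the 20-nt sequence at 112–131. Counting those that also lay inside one on the same strand, 11 of the 34 were the antisense of a part of a longer sRNA. They held 13 of the 40 reads (32.5%, interval 18.6 to 49.1%). The share inside varied with length. All 3 sequences of 21 nt and 5 of the 7 of 20 nt lay inside a longer sRNA, and 3 of the 12 of 22 nt did. Below 20 nt it was 5 of 12. These classes hold 3 to 12 sequences, and a shorter sequence has more places in which it can lie inside a longer one. No share by chance was worked out, so that the classes cannot be ranked by these shares. Most of the 18 reads were in a library without the longer sRNA. Only 7 reads of 6 sequences were in a library that also held a longer sRNA around them. Of these, 5 reads were in the S. pennellii flower library, and 1 each was in S. pennellii pollen replicate 2 and F1 pollen replicate 4.

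The ends that short sequences shared with longer ones were split by strand. All 6 plus-strand sequences inside a longer sRNA began at its 5′ end and lacked 1 to 4 bases at the 3′ end. Of the 10 minus-strand ones none began at the 5′ end of a longer sRNA, 3 ended at its 3′ end and 7 touched neither end. The strands also differed in size. The plus-strand sequences inside were all of 20–22 nt, and 5 of the minus-strand ones were of 15–19 nt. A part played by size in this split was not tested. In H06 coordinates, the 9 sequences that shared an end all shared the lower coordinate, and 0 shared the higher one. The following sets show both kinds, with the shared part in capitals. The first is a plus-strand pair, and the other 2 are minus-strand sets of 3 that end at the same base.
24 nt, S. pennellii plus, with its 22-nt part from 135: AGTGATTTTGTTGTGTCTTTCTcc
22 nt, S. pennellii plus 135–156: agtgattttgttgtgtctttct
24 nt, S. pennellii minus 189–212: atTGGTCGAAGAGTGTGAAATGCC
23 nt, S. pennellii minus 189–211: tTGGTCGAAGAGTGTGAAATGCC
22 nt, S. pennellii minus 189–210: TGGTCGAAGAGTGTGAAATGCC
24 nt, S. pennellii minus 120–143: aaaatcaCTGACACTAATGACAAG
20 nt, S. pennellii minus 120–139: tcaCTGACACTAATGACAAG
17 nt, S. pennellii minus 120–136: CTGACACTAATGACAAG

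The plus-strand pair was in S. pennellii pollen replicate 2, with 1 read of each length. In the set that ends at 189, the 22-nt sequence had 1 read and the 23-nt one 2 reads in S. pennellii flower replicate 1, and the 24-nt one had 1 read in F1 flower replicate 2 and 2 in F1 flower replicate 4. In the set that ends at 120, the 20-nt sequence had 1 read in F1 flower replicate 3 and the 24-nt one 2 reads in S. pennellii flower replicate 1. The 17-nt member is the sequence with no read in the libraries used. The 16-nt sequence at 420–435 has a neighbour of the same kind, a 15-nt sequence at 420–434 with 1 read in F1 pollen replicate 1, but no longer sRNA ended where they do.

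Short sRNAs of H06 were found in flowers and pollen and in none of the 8 leaf libraries. F1 flowers had 2, 0, 5 and 2 short reads (replicates 1 to 4), F1 pollen had 6, 3, 1 and 5, and F1 leaves had 0 in each of 4 libraries. The S. pennellii flower library had 7, S. pennellii pollen had 3 and 4, and both S. pennellii leaf libraries had 0. M82 flowers had 1 read in each library, and M82 pollen and leaves had 0 in both libraries. Both of the M82 flower reads matched the H06 sequence of S. pennellii only. A count of 0 allows up to 3 reads per library. Reads of 23–24 nt were as scarce in leaves, with 0, 0, 0 and 2 in the F1, 0 and 1 in S. pennellii and 0 and 0 in M82. A short share like that of the other tissues would not have been detectable in so few leaf reads.

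In the F1, pollen averaged 3.75 short reads (SD 2.22, n = 4) and leaves averaged 0 (SD 0, n = 4), and the groups did not overlap. This difference had p = 0.0286 in a two-sided exact permutation test, the smallest that 4 against 4 libraries allow, and an adjusted p of 0.0857 over the 3 tissue comparisons (Benjamini-Hochberg), so that it did not pass 0.05. The difference rested mostly on sequences that lie outside the longer sRNAs found here, which gave 3 reads (exact permutation p = 0.0286, adjusted p = 0.0857). The sequences inside a 23–24-nt sRNA gave 0.75 (exact permutation p = 0.429, adjusted p = 0.643), with groups that overlapped. Neither set passed 0.05 after adjustment. F1 flowers averaged 2.25 (SD 2.06, n = 4), which overlapped with leaves since replicate 2 had no short read (difference 2.25, exact permutation p = 0.143, adjusted p = 0.214). F1 flowers and F1 pollen also overlapped (difference −1.50, exact permutation p = 0.429, adjusted p = 0.429). The libraries of 1 tissue came from separate plants per the study's methods, but leaves, flowers and pollen may share plants, which the labels do not say. With equal replicate numbers taken as pairs, F1 pollen minus F1 leaf had an exact p of 0.125, the smallest that 4 pairs allow.

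Between genotypes the libraries were too few to pass the threshold. F1 pollen was above M82 pollen in every library, with a mean of 3.75 (SD 2.22, n = 4) against 0 (SD 0, n = 2), and the exact permutation p of 0.133 was the smallest these numbers allow (adjusted p = 0.4 over the 3 genotype comparisons). F1 pollen averaged 3.75 (SD 2.22, n = 4) and S. pennellii pollen 3.50 (SD 0.707, n = 2), and they overlapped, with exact permutation p = 1 and adjusted p = 1. F1 flowers averaged 2.25 (SD 2.06, n = 4) and M82 flowers 1 (SD 0, n = 2), with exact permutation p = 0.667 and adjusted p = 1. The M82 flower reads in this comparison matched the S. pennellii sequence only. With 1 S. pennellii flower library used and the possible second one left out, its 7 short reads, the highest count of the libraries used, have no replicate check here, and the smallest p that could be had against M82 flowers is 0.667.

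Pooled over libraries, the short class took a similar share of the H06 reads in the F1 and in S. pennellii, with wide intervals. It made up 24 of 98 reads in the F1 (24.5%, interval 16.4 to 34.2%), 14 of 54 in S. pennellii (25.9%, interval 14.96 to 39.7%) and 2 of 6 in M82 (33.3%, interval 4.33 to 77.7%). By tissue it was 18 of 69 reads in flowers (26.1%), 22 of 86 in pollen (25.6%) and 0 of 3 in leaves. Single libraries spread widely. The F1 flower libraries had 18.2, 0, 38.5 and 15.4% and the F1 pollen libraries 37.5, 12.5, 20 and 50.0%, with means of 18.01% (SD 15.8, n = 4) and 30.0% (SD 17.0, n = 4). The difference of −12.0 percentage points was within that spread (exact permutation p = 0.371). The S. pennellii pollen libraries had 25.0 and 26.7%, and its flower library 26.9%. In M82 flowers both H06 reads were short, and in M82 pollen all 4 were of 24 nt. The 2 flower reads, which make up the short share of M82, matched the S. pennellii sequence only.

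Most short sequences matched the H06 sequence of 1 parent only. Of the 34, 22 matched S. pennellii only (27 reads), 11 matched M82 only (12 reads), and 1, of 21 nt and at 178–198 of S. pennellii, matched both (1 read). The longer sRNAs were split much the same way, with 49 of 81 (60.5%) that matched S. pennellii only, 28 (34.6%) M82 only and 4 both, against 64.7% and 32.4% of the short ones. In F1 flowers 5 short reads matched M82 only and 4 matched S. pennellii only, and the 23–24-nt reads were split 21 and 10, with 1 that matched both. In F1 pollen 4 short reads matched M82 only and 11 matched S. pennellii only, and the 23–24-nt reads were split 13 and 27. In F1 flowers the short reads were near an even split. These are sums over libraries in which 1 library can hold 5 or 6 of the short reads, and no test of the allele split was made.

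Some short reads in a parent matched only the other parent. This was so for 5 of the 16 short reads of M82 and S. pennellii (interval 11.0 to 58.7%) and for 3 of their 44 reads of 23–24 nt (6.82%, interval 1.43 to 18.7%). Why these reads matched the other parent was not tested. The 5 sequences are shown so that their letters can be set beside the plant's own H06. Each is followed by the nearest site in the plant's own H06 sequence, with the bases that differ in capitals.
15 nt, in M82 flower replicate 1, S. pennellii minus 110–124: acaagtgactatatT
nearest in M82, minus 111–125: acaagtgactatatC
15 nt, in M82 flower replicate 2, S. pennellii minus 148–162: AtaTggagAaagaca
nearest in M82, minus 149–163: CtaCggagGaagaca
15 nt, in S. pennellii pollen replicate 2, M82 minus 377–391: actttgtttggtAtc
nearest in S. pennellii, minus 386–400: actttgtttggtGtc
20 nt, in S. pennellii pollen replicate 1, M82 plus 392–411: aGccaatattgtatttccat
nearest in S. pennellii, plus 401–420: aAccaatattgtatttccat
19 nt, in S. pennellii pollen replicate 2, M82 minus 123–141: atcactgacaAtaaGgaca
nearest in S. pennellii, minus 122–140: atcactgacaCtaaTgaca

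Each of the 5 had 1 read. They differ from the nearest site of the plant's own H06 at 1 base in 3 of the 5 sequences, at 2 bases in the 19-nt sequence and at 3 bases in the sequence of M82 flower replicate 2. Both short reads of M82 are among them, so that no short read in an M82 library matched the M82 sequence. Of the 14 short reads of S. pennellii 3 matched M82 only (21.4%, interval 4.66 to 50.8%), all in pollen. Among the 23–24-nt reads the 3 were also in S. pennellii pollen, all in replicate 2, and differ from its own H06 at 1 base. One of these is the 24-nt sequence that begins with the 20-nt one shown, which was read in the other S. pennellii pollen library. No genome was used, and whether these letters also occur elsewhere in either genome was not tested.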

How the data were processed

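sRNA libraries of leaves, flowers and pollen were trimmed by the authors with Trim Galore and mapped with Bowtie 1.1.1 to H06 as sequenced in each parent, allowing no mismatch. The 3 deposited tables list every distinct read sequence that matched, with its unscaled count per library. Of the columns of library values, 23 were used. The second M82 flower column has N82 for M82 in its name and was taken as M82, and 1 column of that name in the S. pennellii table, which may be the second S. pennellii flower sample, was not used. A sequence that matches both H06 sequences was counted once. From the deposited seedling counts per locus only the position of H06 was taken.

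Distinct sequences of 15–22 nt were set against those of 23–24 nt. Nothing was normalized, as the tables and labels give no depth per library and the study gives only an approximate size for the libraries as a whole. Differences of means were tested by two-sided exact permutation over libraries (2 times the smaller tail, Python 3.11.15, scipy 1.17.1, tested on simulated data), with Benjamini-Hochberg adjustment over 3 comparisons and a threshold of 0.05. The sequences named were those with 2 reads or more, found in 2 libraries or more, or found in an M82 library. Others that are printed were chosen after their values were seen. Members and rules were chosen with earlier results of these data known. Alternatives were other size ranges, ways of counting, sets of sequences, scales, a replicate block and leaving out each library. Mismatches were counted on copies of the H06 sequences of 462 bases (M82) and 411 bases (S. pennellii), the second of which lacks 60 bases before listed position 122. All 44 listed M82 sites were found in them, and 17 of the 76 listed S. pennellii sites were not.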

Additional observations from a re-analysis of the deposited data

How the results depend on the processing

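No alternative moved a comparison past the threshold. F1 pollen minus F1 leaf, 3.75 reads, was 2.25 with 20–22 nt only, 0.75 with only sequences inside a longer sRNA and 3 with only those outside, with adjusted p from 0.0857 to 0.643 over the alternatives that kept all libraries. Leaving out each library in turn gave 3.0 to 4.67 for it, 1.33 to 3.0 for F1 flower minus F1 leaf, −2.42 to −0.75 for F1 flower minus F1 pollen, 0.33 to 2.0 for F1 flower minus M82 flower, 3.0 to 4.67 for F1 pollen minus M82 pollen, −0.50 to 1.17 for F1 pollen minus S. pennellii pollen, and −18.8 to −5.33 percentage points for the share in F1 flower minus F1 pollen.

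F1 flower minus F1 pollen turned to 0.25 with only the sequences inside a 23–24-nt sRNA. F1 pollen minus S. pennellii pollen turned to −0.25 with 18–22 nt, with 20–22 nt and with distinct sequences, to −0.75 with only sequences inside a longer sRNA, to −0.063 on the log2(reads + 1) scale, and to −0.5 without F1 pollen replicate 1, −0.17 without F1 pollen replicate 4 and −0.25 without S. pennellii pollen replicate 1. The cause was not tested. The share of short reads inside a longer sRNA was 65.0% when either strand counted.

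Whether an equal replicate number marks the same plant is not stated, and 1 of 12 same-numbered pairs of F1 libraries correlated above 0.1 (r from −0.06 to 0.10). Pairs with a leaf library cannot answer this, as the F1 leaf libraries had 0, 0, 0 and 2 H06 reads. The flower and pollen pairs had r from −0.06 to 0.10, with few reads in each library. With a replicate block, the differences were 2.25 (exact p = 0.25), 3.75 (exact p = 0.125) and −1.50 (exact p = 0.625) for the 3 F1 tissue comparisons. For the share the difference was −12.0 percentage points. Between genotypes an equal number cannot mark the same plant. There the block kept only F1 replicates 1 and 2, and its differences of 0, 4.50 and 1 are no check on the values from all libraries. No comparison passed without the block, and 4 pairs cannot give an exact p below 0.125.

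At 40 reads over 23 libraries, a difference of a few reads between tissues cannot be told from the spread, and no value of depth per library was used.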
